A study of Sus scrofa with 18 samples.

Results

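The 10 genes described here are FOS, FOSB, FOSL1, FOSL2, JUN, JUNB, JUND, ATF3, EGR1 and MAFF, chosen by name out of 28210 RefSeq genes on the 18 autosomes, X and Y, of which 19550 are protein-coding. The histone marks H3K4me3 and H3K27ac were followed around them in pig myometrium, the muscular wall of the uterus. A peak was assigned to a gene when at least 1 bp of it lay in the window from 10 kb before to 10 kb after the gene. The tissue came from Yorkshire gilts on day 15, from the mesometrial side, with the endometrium cut away. GD15M_CM is the inner circular muscle of mated, pregnant gilts, GD15M_LM is their outer longitudinal muscle, and CD15M_CM is the circular muscle of cyclic gilts on the same day of the oestrous cycle. Each group had 2 gilts, and the age of the animals is not given in the sources used here. The 18 libraries were made by CUT&Tag, in which protein A-Tn5 cuts the DNA beside an antibody bound to chromatin: 12 with an antibody to a mark and 6 with control IgG. The study pooled both gilts before calling peaks, which left 6 lists, 1 per mark and tissue. There is therefore no replicate spread and no test for any difference below.

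AP-1 is a dimer of basic leucine zipper proteins, in which a FOS-family protein pairs with a JUN-family protein, or JUN proteins pair with each other, on short DNA elements in promoters and enhancers. FOS, FOSB, JUN, JUNB, EGR1 and ATF3 are classical immediate early genes, transcribed within minutes of a growth factor, stretch or stress signal without the need for new protein. In the uterus, FOS and JUN proteins are known as regulators of contraction-associated genes at labour. H3K4me3 is found at active or poised promoters, and H3K27ac at promoters and enhancers in use.

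In the order GD15M_CM, GD15M_LM and CD15M_CM, 33599, 31910 and 36331 peaks were listed for H3K4me3 and 79877, 57010 and 82037 for H3K27ac. The lists hold no read counts, and the reads per library that the study gives elsewhere were not used here, so no precision from depth was put on a peak. Fold enrichment is not on 1 scale between lists: its percentile 90 was 20.32 for H3K4me3 in GD15M_CM and 25.58 in GD15M_LM, and for H3K27ac 5.39 and 6.29. Each peak was therefore ranked by fold enrichment among the peaks of its list, as a percentile. A gene took the percentile of its highest-ranked peak, or 0 where no peak was listed. Differences between lists of at least 10 percentile points were counted, beside the same count over all protein-coding genes with a peak in either list. A gene near the top of a list cannot rank 10 points higher in another, and the size of a difference has no error.

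All 12 smooth muscle markers had an H3K27ac peak within 10 kb in each tissue, with median percentiles of 92.18 in GD15M_CM, 94.53 in GD15M_LM and 95.96 in CD15M_CM. Markers of other cells were also marked. All 10 uterine epithelium markers had an H3K27ac peak in GD15M_CM and in CD15M_CM and 9 did in GD15M_LM, where GRHL2 was at 0, and their summed percentiles were 778.2, 711.7 and 627.9. Of 7 placed T cell markers, 6 had an H3K27ac peak in GD15M_CM, with a summed percentile of 402.8, against 4 in GD15M_LM with 254.1 and 4 in CD15M_CM with 259.1. CD3E was at 0 in every tissue, and CD3D and CD2 were at 0 in GD15M_LM and CD15M_CM. Of 7 macrophage markers, 5 had a peak in each tissue, with CD163 and MSR1 at 0. Endothelium markers had a peak for 7, 6 and 7 of 8 genes in the order GD15M_CM, GD15M_LM and CD15M_CM, and placed mesothelium markers for 3, 4 and 3 of 4. T cell and epithelium sums were thus largest where several AP-1 genes had their highest H3K27ac ranks, and their part in those results was not tested. In such whole layers, fewer cells of a type and less signal per cell cannot be told apart.

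All 10 genes had a peak of both marks within 10 kb in all 3 tissues, and all 10 also had one over the gene itself. Among protein-coding genes, 77.1% had an H3K4me3 peak within 10 kb in GD15M_CM, 78.0% in GD15M_LM and 78.6% in CD15M_CM, and for H3K27ac 77.7%, 77.0% and 79.5%. The highest H3K4me3 peak of the 10 genes had a median percentile of 90.85 in GD15M_CM, 89.6 in GD15M_LM and 88.7 in CD15M_CM, against 83.11, 82.19 and 84.2 for all protein-coding genes with a peak. For H3K27ac the medians were 98.06, 92.66 and 94.93, against 89.79, 86.41 and 88.28. Within 10 kb the family thus ranked above the median marked gene in every list, and 9 of the 10 genes were at or above percentile 90 of the H3K27ac list of GD15M_CM, as against 6 in each of the other tissues. Among all protein-coding genes, 38.2% reached percentile 90 of H3K27ac in GD15M_CM, 30.8% in GD15M_LM and 36.2% in CD15M_CM. With peaks over the gene itself, the H3K27ac median of the 10 genes was 81.1 in GD15M_LM, below the 83.1 of all protein-coding genes with such a peak, and 95.42 and 91.8 in GD15M_CM and CD15M_CM, beside 87.1 and 85.3.

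**Figure D1:**
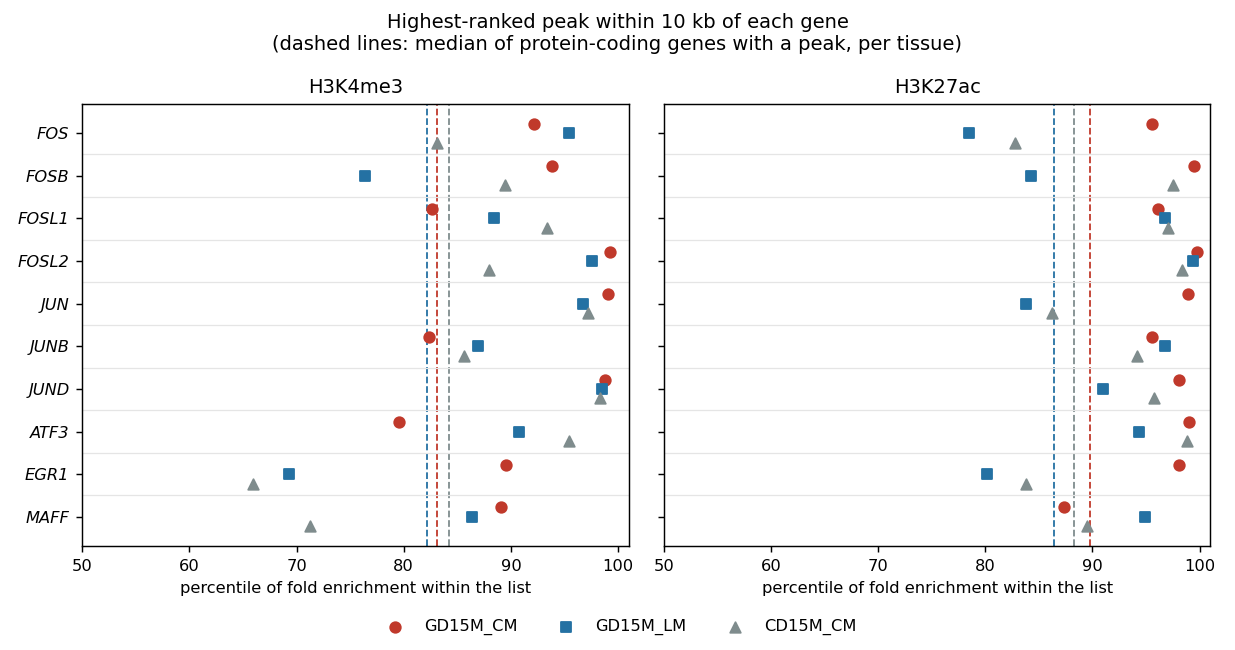
Percentile of the highest-ranked peak within 10 kb of each gene (horizontal axis, percentile of fold enrichment within the list) for H3K4me3 (left) and H3K27ac (right). Each point is 1 pooled peak list, circles for GD15M_CM, squares for GD15M_LM and triangles for CD15M_CM, and dashed lines are the medians of protein-coding genes with a peak. The circles of FOS, JUN and EGR1 for H3K27ac, at 95.51, 98.91 and 98.07, stand to the right of their squares and triangles, which lie between 78.44 and 86.22.

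FOS encodes the founding partner of JUN in AP-1 and lies on chromosome 7 from 98449508 to 98451971 of the Sscrofa11.1 assembly. A long H3K4me3 peak covered most of the gene in each tissue, at percentile 92.18 (fold enrichment 21.75) in GD15M_CM, 95.42 (30.67) in GD15M_LM and 83.08 (20.18) in CD15M_CM. Its H3K27ac peak was at percentile 95.51 (6.39) in GD15M_CM, 78.44 (5.09) in GD15M_LM and 82.8 (4.74) in CD15M_CM. FOS therefore ranked higher by H3K27ac in pregnant circular muscle than in either other tissue, by 17.07 and 12.71 points, while its H3K4me3 rank was highest in longitudinal muscle. The extent of the called region differed with it: in GD15M_CM a peak of 2080 bp was listed apart from one of 1134 bp beside it, where GD15M_LM had 1 peak of 3505 bp and CD15M_CM 1 of 4192 bp. With peaks less than 1 kb apart joined, the FOS difference from CD15M_CM was 2.78 points and that from GD15M_LM 21.07. The joined CD15M_CM percentile of FOS, 90.53, was above the 81.29 of JUN, whose highest fold enrichment there was 5.02. No CD15M_CM peak in the FOS window exceeded 4.74, so the joined value was set by a peak beyond the window and not by the one over FOS.

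JUN, the main JUN-family partner, lies on chromosome 6 from 153686425 to 153687635. Its H3K4me3 peak was broad and near the top of each list, with percentiles of 99.1, 96.76 and 97.2 and lengths of 6219, 7353 and 6485 bp in GD15M_CM, GD15M_LM and CD15M_CM. The H3K27ac peak over JUN spanned nearly the same bases in the 3 tissues, 4479, 4371 and 4424 bp long, and stood at percentile 98.91 (8.05) in GD15M_CM, 83.75 (5.55) in GD15M_LM and 83.83 (4.84) in CD15M_CM. JUN was thus separated between tissues by H3K27ac and hardly by H3K4me3. A flanking H3K27ac region 3318 bp below the gene had a peak at percentile 83.8 in GD15M_CM and 86.22 in CD15M_CM, where it outranked the peak over the gene, and none in GD15M_LM.

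EGR1, a zinc finger factor induced by the same signals as FOS, lies on chromosome 2 from 140440829 to 140445302 and set pregnant circular muscle apart by both marks. Its H3K4me3 peak was close to the same length in each tissue, 5099, 4915 and 5141 bp, but its percentile was 89.53 (20.08) in GD15M_CM, 69.28 (14.29) in GD15M_LM and 65.95 (9.86) in CD15M_CM. Over the gene, H3K27ac stood at percentile 98.07 (7.42) in GD15M_CM, with −log10 p of 21.32, at 31.29 (3.31) in GD15M_LM, with 9.78, and at 35.85 (3.16) in CD15M_CM, with 7.53. In CD15M_CM the region was listed as 2 peaks of 1276 and 1635 bp, in place of 1 of 4219 bp in GD15M_CM. A second H3K27ac region below the gene had the opposite order: its percentile was 18.14 in GD15M_CM, 80.19 in GD15M_LM at 5125 bp from the gene and 83.79 in CD15M_CM at 5621 bp. That flanking region set the 10 kb value of EGR1 in both other tissues, so the difference within 10 kb was 17.88 points from GD15M_LM and 14.28 from CD15M_CM, while the one over the gene was 66.79 and 62.22 points.

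**Figure D2:**
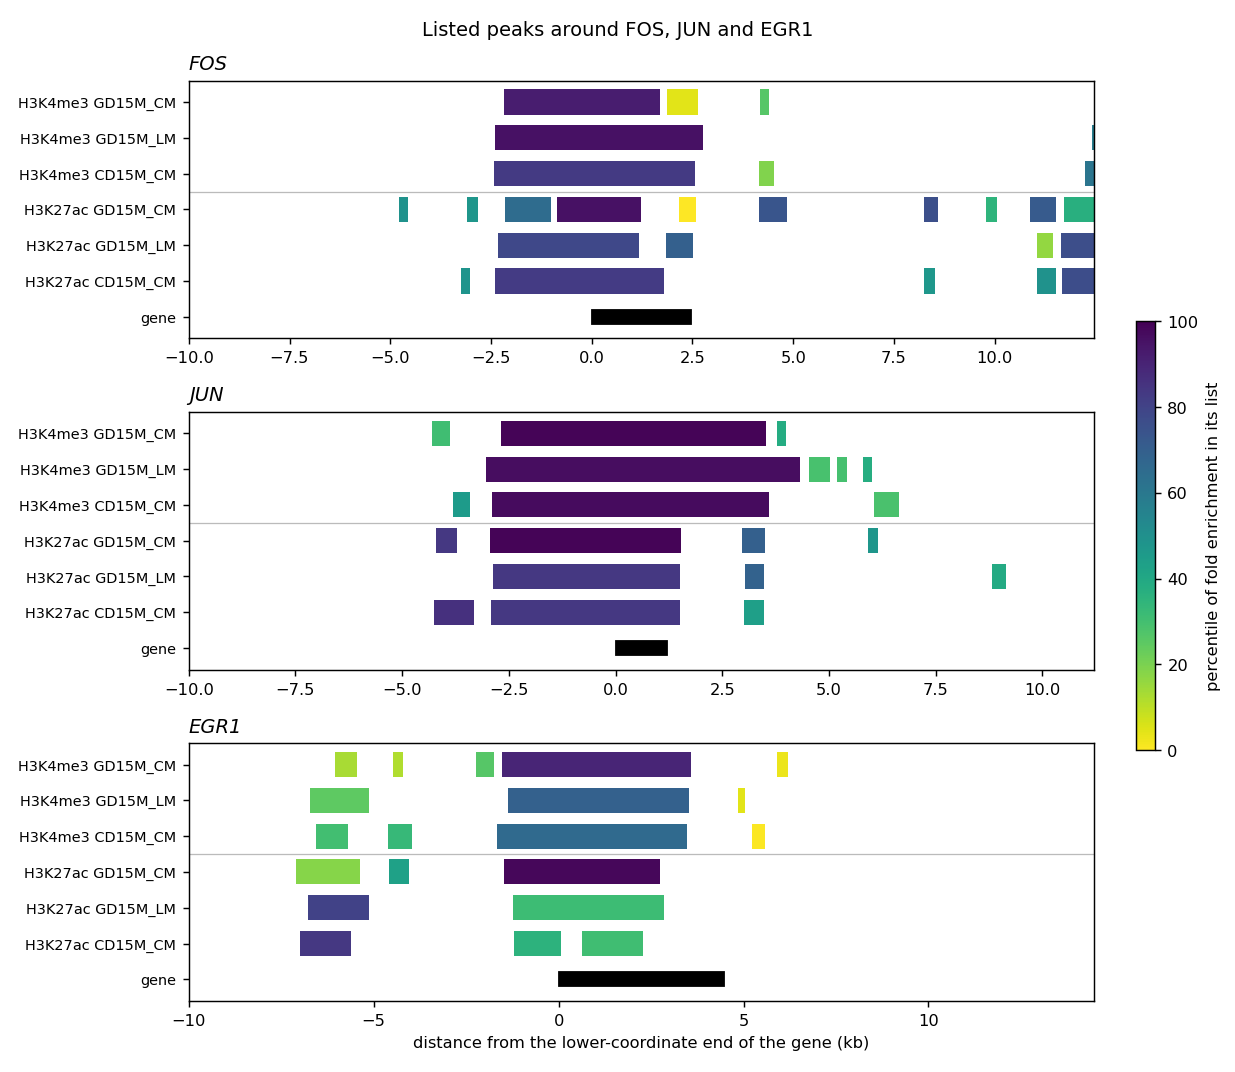
Listed peaks from 10 kb before to 10 kb after FOS, JUN and EGR1, as bars against distance in kb from the lower-coordinate end of the gene (black bar), 1 row per mark and tissue. Darker bars have a higher percentile of fold enrichment in their list. The H3K27ac bar over EGR1 is dark in GD15M_CM (98.07) and pale in GD15M_LM (31.29) and CD15M_CM (35.85), and the bar to its left has the reverse order (18.14, 80.19 and 83.79).

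FOSL2, a FOS relative without the strong transactivation domain of FOS, lies on chromosome 3 from 110820403 to 110842903 and had the highest H3K27ac rank of the 10 genes in both pregnant tissues. Its H3K4me3 peak lay at the higher-coordinate end of the gene and extended beyond it, with lengths of 8948, 12235 and 11369 bp in GD15M_CM, GD15M_LM and CD15M_CM. Its percentile was 99.23 (32.59) and 97.61 (34.16) in the pregnant tissues and 87.95 (23.26) in CD15M_CM. The same end held the top H3K27ac peak in GD15M_CM, at 99.76 (9.77) over 8292 bp, and in GD15M_LM, at 99.34 (9.73) over 8312 bp. In CD15M_CM that region stood at 76.8, and the top peak, at 98.36 (7.38), was the neighbouring region inside the gene. Thus all 3 tissues had a FOSL2 peak in the upper 2% of the H3K27ac list, but at different positions. A region 1319 bp below the gene stood at 10.55 in GD15M_CM, 72.57 in GD15M_LM and 85.24 in CD15M_CM.

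FOSB, the paralogue of FOS on chromosome 6 from 51836780 to 51844531, had H3K4me3 over the gene at percentile 87.27 (18.78) in GD15M_CM, 72.15 (15.73) in GD15M_LM and 89.44 (24.4) in CD15M_CM. H3K27ac over the gene was weaker, at 73.44 in GD15M_CM, 74.15 in GD15M_LM and 44.03 in CD15M_CM. Its top H3K27ac peak lay 4562 bp beyond the higher-coordinate end in a region without another gene model, at 99.43 (8.76), 84.24 (5.59) and 97.52 (6.95). That flanking region was high in both circular muscles and lower in longitudinal muscle, whereas the gene itself was lower in the cyclic circular muscle. A pseudogene, LOC110261356, begins 7651 bp from FOSB.

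FOSL1, which lacks a strong activation domain like FOSL2, lies on chromosome 2 from 6430158 to 6436173 with CCDC85B 614 bp, FIBP 4310 bp and CTSW 9932 bp away. Its H3K4me3 percentile was 82.64 in GD15M_CM, 88.43 in GD15M_LM and 93.33 in CD15M_CM, and in GD15M_CM and CD15M_CM the peak that set it overlapped FIBP and not FOSL1. Over FOSL1 the H3K4me3 percentiles were 80.54, 88.43 and 92.65, in the same order. These peaks also spanned CCDC85B, and the one in GD15M_LM reached FIBP. Within 10 kb the H3K27ac values were close, at 96.09, 96.77 and 97.09, but over FOSL1 they were 60.91, 96.77 and 97.09. In GD15M_LM the peak at 96.77 overlapped only the higher-coordinate end of FOSL1, and a peak further inside the gene was at 86.91. FOSL1 was thus the gene of the family with the lowest rank over the gene in pregnant circular muscle by H3K27ac. In that list the bases at its higher-coordinate end held a peak at 33.74 where the other tissues had 96.77 and 97.09.

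JUNB and JUND pair with FOS proteins and often activate less strongly than JUN. JUNB lies on chromosome 2 from 66214086 to 66219435 in a gene-dense stretch with PRDX2 2612 bp, RNASEH2A 5669 bp and HOOK2 8127 bp away. Its H3K4me3 percentile was 82.37, 86.92 and 85.63 in GD15M_CM, GD15M_LM and CD15M_CM, and its H3K27ac percentile 95.51, 96.81 and 94.16. JUNB had 22843, 21926 and 23134 bp covered by H3K4me3 peaks, more than any other member, and the window includes bases of its neighbours. JUND, on chromosome 2 from 59530991 to 59532846, had H3K4me3 percentiles of 98.74, 98.48 and 98.36, the narrowest range of the family. Its H3K27ac percentile was 98.06 in GD15M_CM, 90.96 in GD15M_LM and 95.7 in CD15M_CM, and over the gene 95.33, 72.63 and 95.7. Longitudinal muscle was thus the tissue in which JUND ranked lowest by H3K27ac, both with and without the flanks.

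ATF3, a stress-induced basic leucine zipper factor, is the longest of the 10 genes, on chromosome 9 from 130772259 to 130829678, with FAM71A 4215 bp and the lncRNA LOC102164427 4508 bp away. Its H3K4me3 percentile was 79.53 in GD15M_CM, 90.77 in GD15M_LM and 95.45 in CD15M_CM, set in each tissue by a peak that overlapped LOC102164427 and not ATF3. Over ATF3 the highest values were 74.86, 81.66 and 88.45, again lowest in GD15M_CM. A second H3K4me3 region in the gene, from 130827502 to 130828774, had the reverse order, at 71.83, 63.3 and 57.93. It overlapped the short H3K27ac region described last in this paragraph. The top H3K27ac percentiles of ATF3 within 10 kb were 99.03, 94.36 and 98.81. The first came from a peak inside ATF3, and the other 2 from a region overlapping LOC102164427. At that region H3K27ac was 92.05, 94.36 and 98.81, the same order as H3K4me3. The difference from GD15M_LM within 10 kb was 4.67 points, and −2.29 by −log10 p. Over the gene the difference was wider: a short region in the gene stood at 99.03 (8.19) over 860 bp in GD15M_CM, 64.58 (4.31) over 750 bp in GD15M_LM and 97.62 (6.98) over 763 bp in CD15M_CM.

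MAFF, a small MAF protein that lacks an activation domain and pairs with other leucine zipper factors, lies on chromosome 5 from 9683651 to 9696128, with TMEM184B 1535 bp away. The H3K4me3 peak at its higher-coordinate end had a percentile of 89.09 (19.81) in GD15M_CM, 86.41 (23.3) in GD15M_LM and 71.24 (13.35) in CD15M_CM, with lengths of 3414, 3262 and 3317 bp. Its H3K27ac percentiles were 87.32 (5.09), 94.86 (7.2) and 89.45 (5.35). MAFF was the 1 gene of the 10 below percentile 90 in the GD15M_CM list of H3K27ac. In CD15M_CM the value came from another region inside the gene, which stood at 14.33 in GD15M_CM, 78.98 in GD15M_LM and 89.45 in CD15M_CM.

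**Figure D3:**
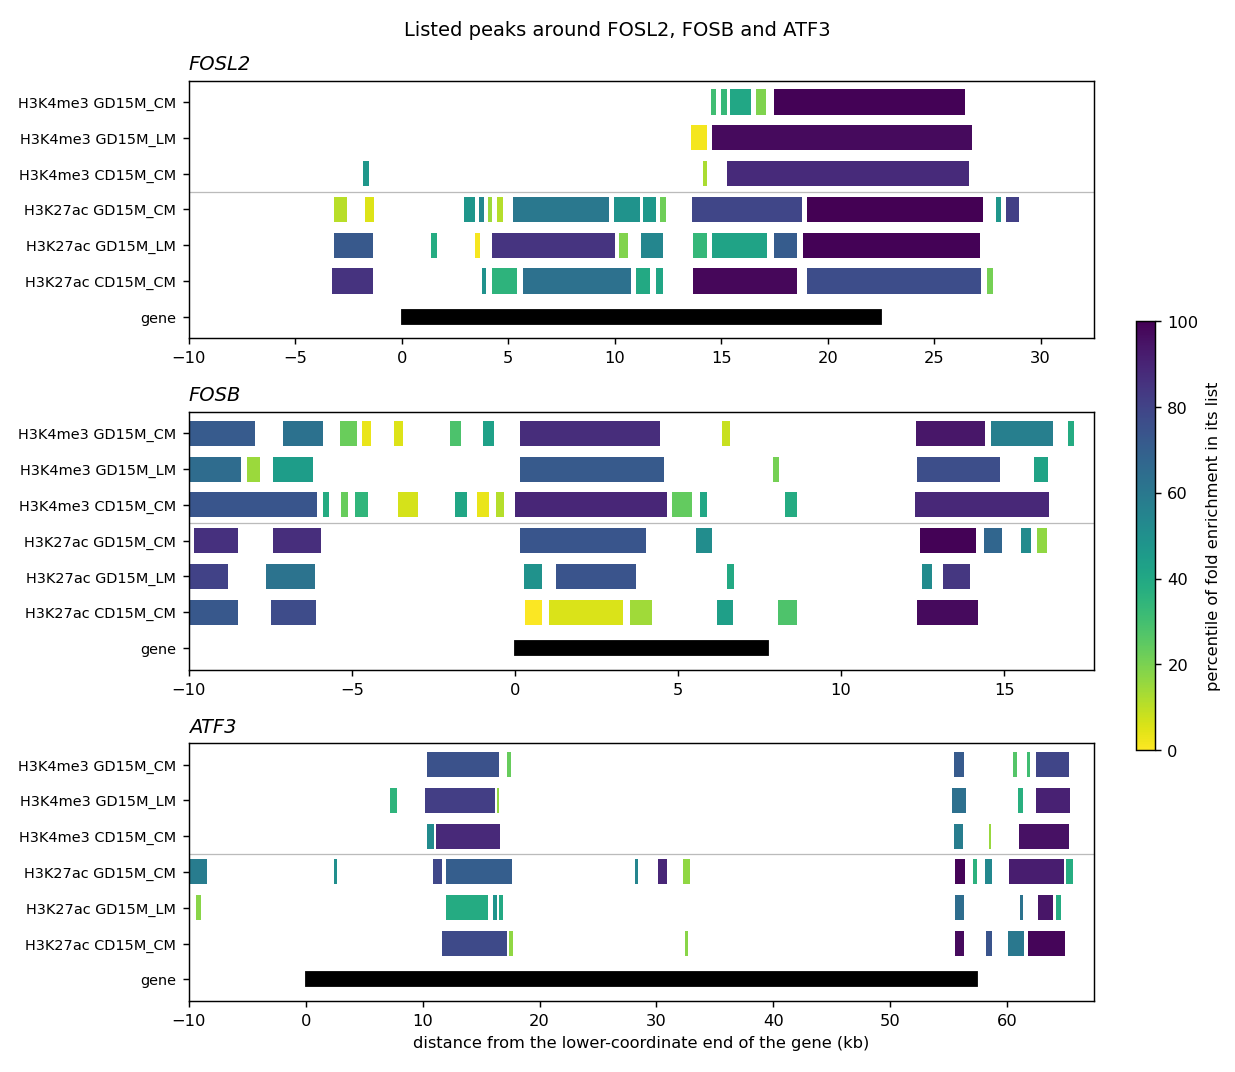
Listed peaks from 10 kb before to 10 kb after FOSL2, FOSB and ATF3, drawn as bars against distance in kb from the lower-coordinate end of the gene (black bar), 1 row per mark and tissue, darker for a higher percentile. In FOSL2 the darkest H3K27ac bar straddles the higher-coordinate end of the gene in GD15M_CM (99.76) and GD15M_LM (99.34) and further inside the gene in CD15M_CM (98.36).

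The comparison of pregnant with cyclic circular muscle addresses what differs with pregnancy in 1 layer, and that of circular with longitudinal muscle what differs between layers. Both use the GD15M_CM lists, so their results are not independent. By H3K4me3, FOSL2, EGR1 and MAFF ranked at least 10 points higher in GD15M_CM than in CD15M_CM, by 11.28, 23.58 and 17.85 points. That is 3 of 10 genes, where 11.1% of all protein-coding genes were as much higher. FOSL1 and ATF3 ranked lower, with differences of −10.68 and −15.92 points, or 2 of 10 where 21.5% of all genes did. The median difference was 3.15 points over the 10 genes and −1.87 over all genes.

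By H3K27ac, FOS, JUN and EGR1 ranked higher in GD15M_CM than in CD15M_CM, by 12.71, 12.69 and 14.28 points, and no gene ranked 10 points lower. The shares over all protein-coding genes were 21.9% higher and 23.1% lower, so 3 of 10 higher is not far above the background. The median difference was 1.65 points over the 10 genes and −0.05 over all genes. Against GD15M_LM, 4 of the 10 genes ranked higher in GD15M_CM by H3K27ac, FOS by 17.07, FOSB by 15.18, JUN by 15.16 and EGR1 by 17.88 points, and none lower. Over all genes 29.4% were higher and 19.3% lower, so here too the count of higher genes was near the background. The median difference was 5.88 points over the 10 genes and 1.77 over all genes. By H3K4me3, FOSB and EGR1 ranked higher in GD15M_CM than in GD15M_LM, by 17.46 and 20.25 points (2 of 10, background 18.6%), and ATF3 ranked lower, with a difference of −11.24 points (1 of 10, background 18.2%).

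The count was repeated with the peaks that overlap the gene itself, some of which also reach a neighbour. The H3K27ac peaks over FOSL1 in GD15M_LM and CD15M_CM, on which its lower rank in GD15M_CM rests, also spanned CCDC85B. By H3K4me3 the same 3 genes were higher in GD15M_CM than in CD15M_CM (background 12.3%) and the same 2 lower (background 24.0%). FOSB and EGR1 were again the 2 genes higher than in GD15M_LM (background 20.9%), and none was lower (background 19.9%). By H3K27ac, 4 genes, FOS, FOSB, JUN and EGR1, were higher in GD15M_CM than in CD15M_CM (background 26.2%), and FOSL1 alone was lower (background 26.9%). Against GD15M_LM, FOS, JUN, JUND, ATF3 and EGR1 were higher, or 5 of 10 (background 33.5%), and FOSL1 was lower (background 23.2%). FOS, JUN and EGR1 were thus higher by H3K27ac in pregnant circular muscle in both comparisons and under both windows. For FOS, and for JUN against GD15M_LM, the same peaks set the value under both windows, so the second window adds nothing there. The counts depend on the measure used to rank: by −log10 p within 10 kb, the H3K27ac count against CD15M_CM was 0 in place of 3, and that against GD15M_LM 2 in place of 4. By −log10 p within 10 kb, FOS differed from CD15M_CM and GD15M_LM by 3.19 and 4.26 points, JUN by 4.24 and 2.83, and EGR1 by 6.86 and 15.1. Over the gene itself, EGR1 differed by 31.72 and 24.26 points by −log10 p.

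**Figure D4:**
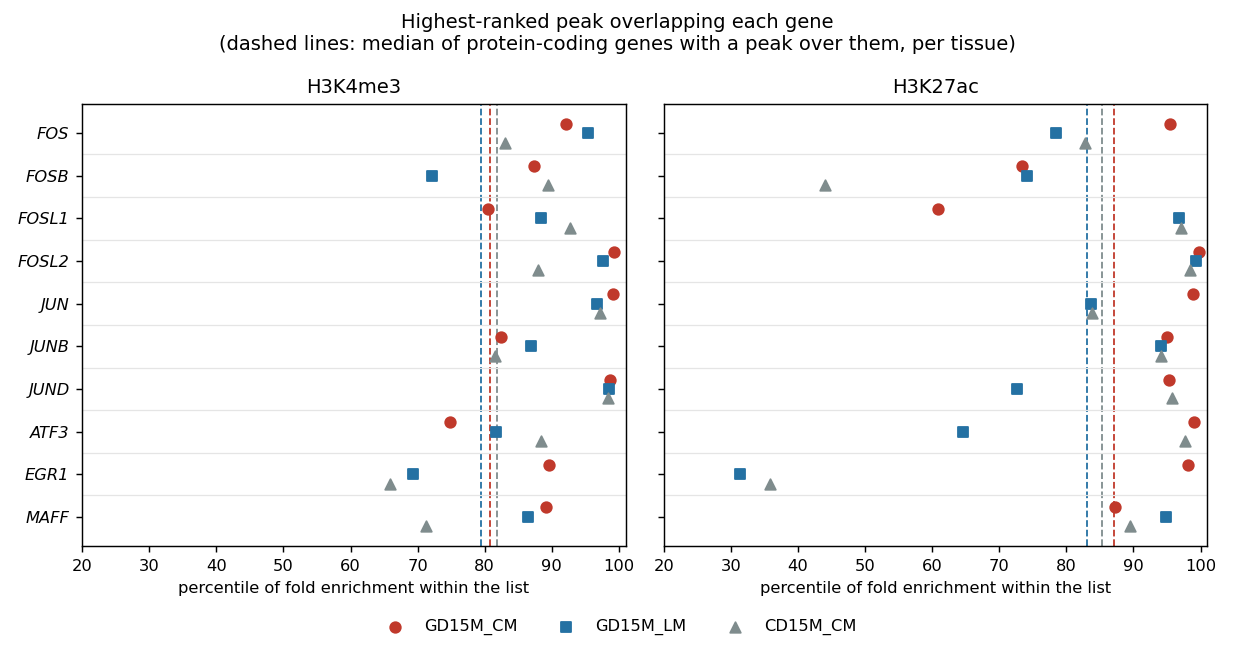
Percentile of the highest-ranked peak that overlaps each gene (horizontal axis, percentile of fold enrichment within the list), for H3K4me3 (left) and H3K27ac (right), with circles for GD15M_CM, squares for GD15M_LM, triangles for CD15M_CM and dashed lines for the medians of protein-coding genes with a peak over them. EGR1 shows the widest spread by H3K27ac (98.07, 31.29 and 35.85), and FOSL1 is low in GD15M_CM only (60.91).

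The marks were also compared within a tissue. In GD15M_CM no gene ranked 10 points higher by H3K4me3 than by H3K27ac (background 16.9%), and FOSL1, JUNB and ATF3 ranked lower by H3K4me3 (3 of 10, background 27.3%). In GD15M_LM FOS and JUN ranked higher by H3K4me3 (2 of 10, background 22.2%) and EGR1 lower (1 of 10, background 23.0%). In CD15M_CM JUN ranked higher (1 of 10, background 20.6%) and FOSL2, EGR1 and MAFF lower (3 of 10, background 24.4%). FOS and JUN thus had H3K4me3 peaks of high rank in longitudinal muscle at 95.42 and 96.76, beside H3K27ac at 78.44 and 83.75. The highest peaks of the 2 marks within 10 kb can lie at different positions. Over the gene itself EGR1 had the reverse order in GD15M_LM, with H3K4me3 at 69.28 and H3K27ac at 31.29. In CD15M_CM these values were 65.95 and 35.85. FOSL1 was also reversed in GD15M_CM, at 80.54 and 60.91. JUNB and ATF3 in GD15M_CM, and FOSL2 and MAFF in CD15M_CM, kept their order.

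The windows of these genes were broadly covered. For GD15M_CM, GD15M_LM and CD15M_CM in turn, peaks of H3K4me3 covered a median of 10874, 10947.5 and 11358.5 bp, against 3656, 3879 and 4021 bp for all protein-coding genes with a peak. For H3K27ac the medians were 10452.5, 7269 and 9275.5 bp, against 3570, 2571 and 3544 bp. The highest-ranked H3K4me3 peak over the gene had a median length of 5659, 6252 and 5546 bp, against 2490, 2654 and 2721 bp, and that of H3K27ac 4044.5, 3783 and 4234 bp, against 1524, 1348 and 1478 bp. ATF3 differed most in bases covered by H3K27ac: its peaks covered 7496 bp in GD15M_LM, 12109 bp in CD15M_CM and 16938 bp in GD15M_CM. FOSL2 was covered almost alike, with 23172, 22184 and 22745 bp.

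**Figure D5:**
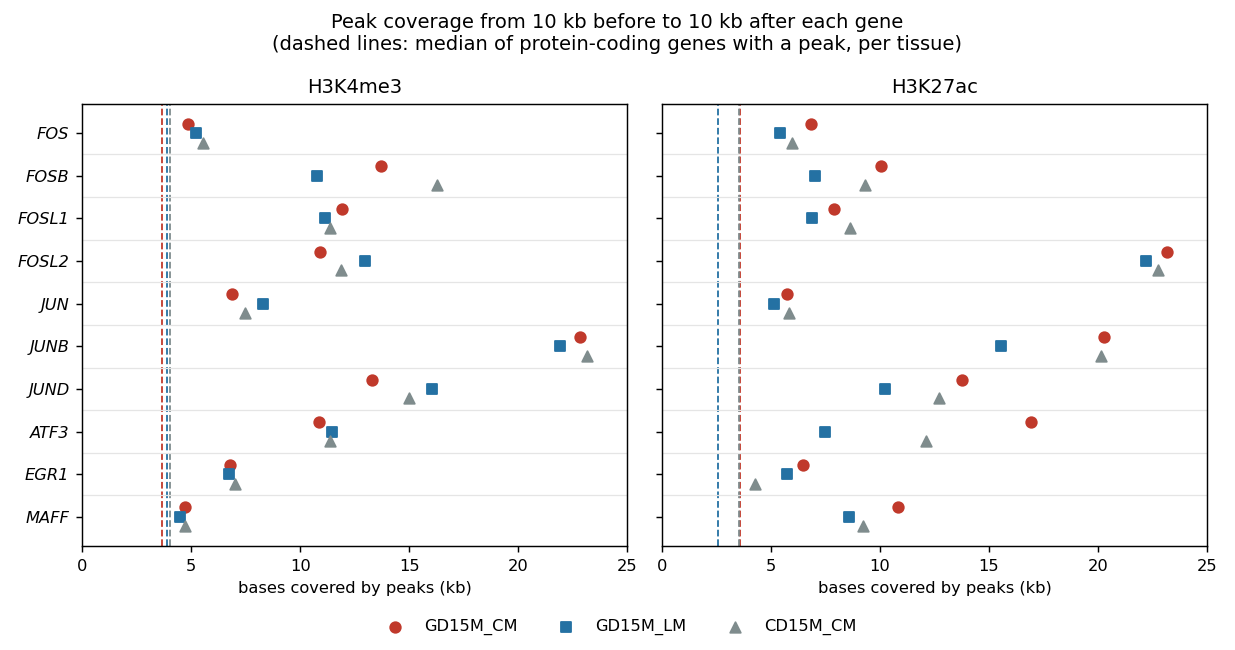
Bases covered by listed peaks (horizontal axis, kb) from 10 kb before to 10 kb after each gene, for H3K4me3 (left) and H3K27ac (right), with circles for GD15M_CM, squares for GD15M_LM and triangles for CD15M_CM. Dashed lines are the medians of protein-coding genes with a peak, and all 10 genes lie to the right of them for both marks. FOSL2, JUNB and ATF3 have the most H3K27ac, with 23172, 20298 and 16938 bp in GD15M_CM.

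Overlapping peaks of the 3 tissues were joined into regions. The 10 windows held 60 H3K4me3 regions, of which 22 had a peak in all 3 tissues and 30 in 1 tissue, a share of 50% where the share over regions near all protein-coding genes was 38.9%. They held 81 H3K27ac regions, of which 39 had a peak in all 3 tissues and 32 in 1 tissue, a share of 39.5% beside 45.9%. Of those 32, GD15M_CM had 23, GD15M_LM 3 and CD15M_CM 6, whereas near all genes the numbers were 17931, 4331 and 16477. Circular muscle of pregnancy therefore held most of the single-tissue H3K27ac regions of these genes.

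The 12 single-tissue regions at or above percentile 50 were all H3K27ac regions of GD15M_CM. The split between tissues at that percentile was not computed over all protein-coding genes, so whether this is particular to these genes was not tested. The highest, at 89.39 (fold enrichment 5.31), was 735 bp inside ATF3, on chromosome 9 from 130802417 to 130803151. The next, at 81.02, was 641 bp long and lay 5856 bp beyond the higher-coordinate end of FOSL2, on chromosome 3 from 110848759 to 110849399. One of 698 bp at 73.81 lay 1689 bp beyond FOS, on chromosome 7 from 98453660 to 98454357, within the lncRNA LOC110261632. The other 9 were 3 near or in FOSB, 3 near or in MAFF, 2 more in ATF3 and 1 near JUNB, at percentiles between 50.41 and 67.3. EGR1, JUN, JUND and FOSL1 had none at that level. Absence from a list says only that no peak was called there in the pooled libraries.

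Genes that share this biology were described in the same way. Of 29 other basic leucine zipper partners, all had an H3K4me3 peak within 10 kb in both pregnant tissues, and MAFA had none in CD15M_CM and no H3K27ac peak in any tissue. By H3K27ac, 9 of 28 ranked higher in GD15M_CM than in CD15M_CM and 4 lower, beside 21.9% and 23.1% of all genes. Against GD15M_LM, 7 were higher and 5 lower, beside 29.4% and 19.3%. BATF, a partner of JUN proteins in lymphoid cells, stood at 50.74 in GD15M_CM and 99.71 in CD15M_CM, while BATF3 stood at 78.94, with 30.82 in CD15M_CM and 5.2 in GD15M_LM. NFE2L3, which pairs with small MAF proteins such as MAFF, stood at 99.4 in GD15M_CM and 38.77 in GD15M_LM by H3K27ac and at 90.86 and 67.49 by H3K4me3. By H3K4me3 the partners counted 5 higher and 4 lower against CD15M_CM, beside 11.1% and 21.5% of all genes. Against GD15M_LM they counted 5 and 5, beside 18.6% and 18.2%. BATF2 stood at 75.98 and 56.16 in GD15M_CM and CD15M_CM, and ATF7 at 76.63 and 93.74 in GD15M_CM and GD15M_LM. The partners thus differed in both directions, and 9 of 28 higher by H3K27ac against CD15M_CM stood beside 21.9% of all genes.

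All 41 other immediate early genes had peaks of both marks in all tissues, with H3K27ac medians of 96.01 in GD15M_CM, 91.91 in GD15M_LM and 91.02 in CD15M_CM. By H3K27ac, 11 ranked higher and 6 lower in GD15M_CM than in CD15M_CM, beside 21.9% and 23.1% of all genes. Against GD15M_LM, 5 ranked higher and 8 lower. SIK1, a kinase gene induced by cAMP, stood at 93.61 in GD15M_CM and 54.52 in CD15M_CM. PTGS2, the inducible prostaglandin synthase, stood at 10.55 in GD15M_CM and 81.09 in GD15M_LM, and ARC at 7.67, with 65.44 in GD15M_LM and 58.24 in CD15M_CM. By H3K4me3 the counts were 8 and 4 against CD15M_CM, beside 11.1% and 21.5% of all genes. They were 8 and 5 against GD15M_LM, beside 18.6% and 18.2%. EGR2, the relative of EGR1, stood at 96.22 and 79.29 in GD15M_CM and CD15M_CM, and PPP1R15A at 72.01 and 98.41, and ARC stood at 26.31 and 65.62 in GD15M_CM and GD15M_LM. Immediate early genes outside AP-1 thus did not share 1 direction. Against GD15M_LM by H3K27ac, their counts of 5 higher and 8 lower stood beside 29.4% and 19.3% of all genes, and their median difference was 0.81 points.

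All 24 upstream regulators, among them SRF and the ternary complex factors that bind the FOS and EGR1 promoters and the kinases that activate them, had peaks of both marks in all tissues. By H3K27ac, 3 were higher and 3 lower in GD15M_CM than in CD15M_CM, beside 21.9% and 23.1% of all genes. Against GD15M_LM, 6 were higher and 3 lower, beside 29.4% and 19.3%. In GD15M_CM and GD15M_LM, the JUN kinase gene MAPK8 stood at 94.34 and 64.07 by H3K4me3, and MAPK9, another JUN kinase gene, at 97.58 and 66.71 by H3K27ac. RPS6KA5, a kinase of CREB and histone H3, stood at 97.02 and 60.27 by H3K27ac. Against CD15M_CM, ELK1 stood at 88.12 and 66.25 and MAP2K7, an activator of JUN kinase, at 93.22 and 73.73 by H3K27ac. By H3K4me3 the counts were 2 higher and 5 lower against CD15M_CM, beside 11.1% and 21.5% of all genes. Against GD15M_LM they were 6 and 5, beside 18.6% and 18.2%. MAP2K4 stood at 94.8 and 71.58 in GD15M_CM and CD15M_CM, and ELK3 at 69.43 in GD15M_CM, 90.53 in CD15M_CM and 97.61 in GD15M_LM.

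Within the family, FOSL1 and JUNB had the most similar levels over the 6 lists, with a mean absolute percentile difference of 2.17, followed by FOSL1 and ATF3 with 2.44 and JUN and JUND with 3.46. FOS was closest to JUN, at 5.75, and FOSL2 and EGR1 were the least alike, at 15.9. Of protein-coding genes outside the lists, leaving out those with symbols that begin with LOC, MTA2 and PHLPP2 were closest to FOS, at 1.65 and 1.82. The 6 lists share a tissue or a mark in part, and these values are descriptions. They use the highest peak within 10 kb, which for FOSL1, JUNB and ATF3 lay outside the gene in some lists. Over the gene itself, H3K27ac in GD15M_CM was at 60.91 for FOSL1, 94.94 for JUNB and 99.03 for ATF3.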

How the data were processed

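H3K4me3, H3K27ac and IgG were profiled by CUT&Tag in 3 tissues of 2 gilts each, and all 18 libraries were assigned by their titles. The authors mapped reads to the Sscrofa11.1 assembly with BWA 0.7.17-r1188, removed duplicates and reads of mapping quality under 25 with SAMtools 1.9 and Picard 2.8.3, pooled both gilts and called peaks with MACS2 2.2.6, extending regions by 3 kb (versions also in the submitters' processing notes). The deposited lists give each peak's position, its length, its fold enrichment (a ratio of signal to background) and −log10 of its p-value as the authors' caller wrote them. A column of −log10 q-values was not used here, because its name was unreadable. The reference used for gene positions was RefSeq on the Sscrofa11.1 assembly, without strand, so gene ends are named by coordinate. No sequence is shown.

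Percentiles, windows and regions (peaks of 1 mark overlapping by at least 1 bp) were computed with Python 3.11.15, pandas 2.3.3 and NumPy 2.4.6, and plotted with Matplotlib 3.10.9. The overlap code was tested on 1200 simulated windows, and 0 differed. Named are all 10 genes, their neighbours, the 2 genes of largest difference past 10 points per other list, comparison and mark, the 3 genes most like FOS, and regions of 1 tissue at or above percentile 50. A few genes that this rule names are not reported here. The 10 genes and the other lists were chosen with earlier results of these data known. ZAP70 and MSLN were not placed. Alternatives were a 3 kb window, a strict threshold, joined peaks, equal numbers of top peaks, ranking by −log10 p and a difference of 5 points, and, chosen after seeing the data, peaks over the gene itself.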

Additional observations from a re-analysis of the deposited data

How the results depend on the processing

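Because gilts were pooled before peaks were called, no error, test or left-out replicate was possible with these lists. How far the depth of the libraries limits short and weak peaks was not tested. The study ran its own test for differing regions, which was not repeated here. For H3K27ac it reported far fewer between pregnant and cyclic circular muscle than between the layers. No paired analysis was possible because the lists hold no value per gilt. Percentiles hide differences in level between lists, and peaks of neighbouring genes lie in the windows. The peaks over the gene itself, by either ranking, were chosen after seeing the data. The cause of the shifts below was not tested. The sign of the EGR1 difference in both marks, and of FOS and JUN by H3K27ac, was the same in 7 of 7 alternatives in both comparisons. The alternatives often rest on the same peaks and are not separate checks. By H3K27ac, FOS differed from CD15M_CM by 12.71 points with the 10 kb window, the 3 kb window and peaks over the gene. Both −log10 p rankings gave it 3.19 points. By H3K27ac against GD15M_LM, FOSB kept its sign in 5 of 7 and ATF3 in 6 of 7.

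With the 3 kb window, median H3K27ac peak length was 4044.5 bp in GD15M_CM and 3034 bp in GD15M_LM, the H3K27ac median percentile of GD15M_LM was 81.1, and 12 H3K27ac regions were in 1 tissue. The numbers of genes lower in GD15M_CM were 0 by H3K4me3 and 1 by H3K27ac against GD15M_LM and 1 by H3K27ac against CD15M_CM, and those higher by H3K4me3 than by H3K27ac were 2 in GD15M_CM, 3 in CD15M_CM and 5 in GD15M_LM.

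Keeping peaks only from −log10 p 10 and fold enrichment 5 upward gave median percentiles for H3K4me3 of 80.49 in GD15M_CM and 75.09 in CD15M_CM, and for H3K27ac of 84.08, 63.0 and 59.2 in GD15M_CM, GD15M_LM and CD15M_CM. Against CD15M_CM, 5 genes were higher in GD15M_CM by H3K4me3 and 7 by H3K27ac, and 1 was lower by H3K27ac. Against GD15M_LM, 3 were lower by each mark. Regions in 1 tissue were 0 for H3K4me3 and 9 for H3K27ac, and 3, 6 and 6 genes were higher by H3K4me3 than by H3K27ac in GD15M_CM, GD15M_LM and CD15M_CM. Under this strict threshold, FOS, JUN and EGR1 had no H3K27ac peak in CD15M_CM. The peaks over FOS and JUN there had fold enrichments of 4.74 and 4.84, just below the cut, with −log10 p of 13.78 and 16.63. EGR1 had 4.83 in its flanking region and 3.16 over the gene. A peak below the cut counts as 0, so these zeros do not mean loss of the mark.

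With peaks less than 1 kb apart joined, the median H3K4me3 peak length of CD15M_CM was 8135 bp, the H3K27ac lengths were 4060.5 bp in GD15M_CM and 3364 bp in GD15M_LM, 15 regions of each mark were in 1 tissue, and 2 genes by H3K4me3 and 1 by H3K27ac were lower in GD15M_CM than in GD15M_LM. With equal numbers of top peaks, 1 gene was lower than in GD15M_LM by H3K27ac, and with 5 points 2 by H3K4me3 and 1 by H3K27ac.

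Ranked by −log10 p, 0 genes were lower in GD15M_CM by H3K4me3 in either comparison, 0 were higher than in CD15M_CM and 2 higher than in GD15M_LM by H3K27ac, and 0 were higher by H3K4me3 than by H3K27ac in GD15M_LM and in CD15M_CM. With peaks over the gene itself, 0 were lower than in GD15M_LM by H3K4me3, 1 was lower in each comparison by H3K27ac, the H3K27ac median of GD15M_LM was 81.1, and 2, 5 and 3 were higher by H3K4me3 than by H3K27ac. With both changes, 0 were lower by H3K4me3 and 1 lower by H3K27ac in each comparison, 2 were higher than in GD15M_LM by H3K27ac, and 1 was higher by H3K4me3 than by H3K27ac in GD15M_CM and 1 in GD15M_LM.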
